A study of Arabidopsis thaliana with 32 samples.

Results

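The early heat difference between tfiis-1 and Col-0 seedlings of Arabidopsis thaliana was read from 2 deposited lists of summits, made from ChIP-seq of RNA polymerase II (RNAPII) after 10 min of heat shock. A summit is the single base pair at which the signal of one genotype was called above that of the other. Sites called higher in tfiis-1 make up the tfiis-1-higher list, and sites called higher in Col-0 the Col-0-higher list. All summits of both lists were taken, and a repeated line was counted once. This gave 3815 summits, 3743 of them tfiis-1-higher and 72 Col-0-higher, among 29485 summits in all 8 lists of the study. The other lists held 1568 summits at 0 min, 8968 at 30 min and 15134 at 3 h.

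The groups at 10 min were tfiis-1 seedlings after 10 min of heat shock and Col-0 seedlings after 10 min of heat shock. The tfiis-1 line carries a mutation in TFIIS, and Col-0 is the wild type. Plants grown in vitro were harvested as whole seedlings 14 days past stratification, so the signal comes from all their cell types together. The sources used here do not give the temperature of the heat shock. The antibody was directed against RNAPII whose C-terminal domain is phosphorylated at Ser2 (S2P). Each genotype had 3 ChIP libraries, called biological triplicates in the design text, and 1 input library at this time. The same design was used at 0 min (no heat shock), 30 min and 3 h. The lists hold no value per library: the sequencing depth is unknown, the spread between replicates cannot be computed, the seedling tissue cannot be checked against marker levels, and no single site has a replicate check here. The gene of TFIIS, AT2G38560, was in 0 of the 8 lists. Its absence is no check of the genotype labels, since mutated genes can keep their polymerase signal.

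TFIIS acts on RNAPII that has slid backwards on the DNA. It makes the polymerase cut the displaced end of its RNA, so that elongation can resume. Ser2 phosphorylation of the C-terminal domain marks elongating RNAPII and typically builds up towards the 3' end of genes, where the RNA is cleaved and polyadenylated. Heat shock switches transcription within minutes to genes of chaperones, which keep other proteins folded, under heat shock transcription factors.

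After 10 min of heat, tfiis-1-higher sites were many and lay mostly in the downstream part of genes, while the Col-0-higher list was short and its sites lay throughout genes. The tfiis-1-higher summits lay in 2989 genes, 10.9% of the 27444 nuclear protein-coding genes. The Col-0-higher summits lay in 69 genes, 0.251% of them. The tfiis-1-higher genes were spread over all 5 chromosomes, with between 10.03% of the genes of chromosome 2 and 11.26% of those of chromosome 3. The Col-0-higher genes numbered 16, 11, 13, 15 and 14 on chromosomes 1 to 5. Both lists come from the same libraries, and the sources used here do not say how the authors scaled the genotypes against each other, so the ratio of the lists' sizes holds only as deposited. Peak names in the Col-0-higher list number up to 478, against 72 summits listed, and the tfiis-1-higher list gives no peak names. Whether both lists were filtered alike is therefore unknown, and so is how many Col-0-higher sites were called before any filter.

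Positions along a gene run from 0 at its annotated start to 1 at its annotated end, in the direction of transcription. A summit inside overlapping genes was counted in each of them, which gave 3842 tfiis-1-higher and 74 Col-0-higher pairs of summit and gene. The tfiis-1-higher median was 0.782 (95% interval 0.768 to 0.798) with quartiles of 0.49 and 0.93, and the Col-0-higher median was 0.478 (0.291 to 0.576) with quartiles of 0.20 and 0.76. The median tfiis-1-higher summit lay 500 bp from the end of its gene. The Col-0-higher summits lay a median of 793 bp from it. In 10 bins of equal width along the gene, tfiis-1-higher summits grew denser from bin 3 on, with 4.19% there, 15.6% in bin 9 and 32.6% in bin 10. No bin of the Col-0-higher list held more than 14.9% of its pairs, and the intervals of its bins overlap.

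**Figure D1:**
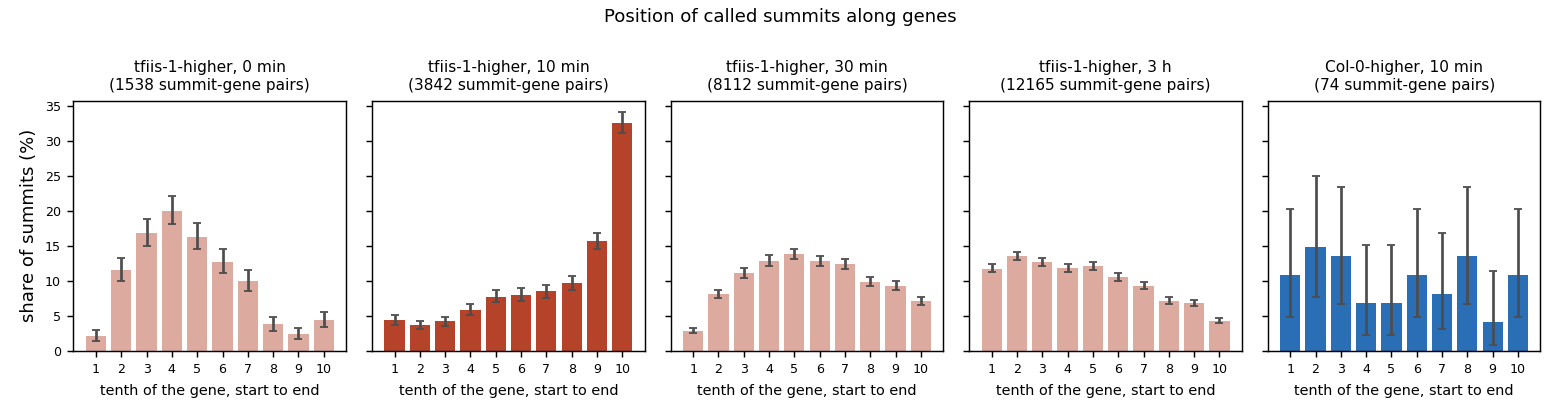
The share of summits (percent, y axis) in each of 10 bins of the gene from start to end (x axis) is drawn for the tfiis-1-higher lists of 0 min, 10 min, 30 min and 3 h and for the Col-0-higher list of 10 min; bars are shares of pairs of summit and gene, and error bars are exact 95% intervals that cover counting error only. The 10 min tfiis-1-higher list is the one with its highest bar, 32.6%, in bin 10, and the 74 Col-0-higher pairs show no such peak.

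The base pairs next to the gene end held a large share of these summits. Of the tfiis-1-higher pairs, 1070 (27.9%, exact 95% interval 26.4 to 29.3) lay within 200 bp of the annotated end. Of the Col-0-higher pairs, 8 (10.8%, 4.78 to 20.2) did. The difference of 17.0 percentage points passed (two-sided test of Fisher, exact adjusted p = 5.75e-04, Benjamini-Hochberg over 7 tests of shares). Summits are not replicates, so these tests and intervals cover at most counting error and not the spread between libraries. They also treat pairs as independent, although 628 genes held more than 1 tfiis-1-higher summit and the lists of different times share genes. The p-values are therefore descriptive. With 1 position per gene the difference was 17.1 points (adjusted exact p = 0.00100). Within the last stretch, 214 pairs lay less than 50 bp from the end, 281 lay at 50 to 99 bp and 571 at 100 to 199 bp.

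The same share was lower in the tfiis-1-higher lists of the other times. It was 4.10% at 0 min, 4.02% at 30 min and 2.70% at 3 h. The difference of the 10 min list was 23.8 points against 0 min (adjusted exact p = 6.36e-103), 23.8 points against 30 min (adjusted exact p = 2.88e-292) and 25.2 points against 3 h (adjusted exact p of at most 7e-300, the smallest value held). In the Col-0-higher lists of the later times, 59.9% of pairs at 30 min and 62.0% at 3 h lay within 200 bp of the end.

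A smaller set of tfiis-1-higher summits lay at the gene start. At 10 min, 128 pairs (3.33%, 2.79 to 3.95) lay within 200 bp of the annotated start, against 0.325% at 0 min (difference 3.01 points, adjusted exact p = 1.97e-13). The 30 min list had 0.764% (difference 2.57 points, adjusted exact p = 2.91e-23). The 3 h list had 5.99%, above the share at 10 min (difference -2.66 points for 10 min minus 3 h, adjusted exact p = 3.36e-11). That last difference depended on the counting: with 1 position per gene it was 0.202 points (adjusted exact p = 0.623) and with a window of 100 bp 0.520 points (adjusted exact p = 0.00206), both with the higher share at 10 min. Of the Col-0-higher pairs, 9 of 74 (12.2%, 5.71 to 21.8) lay within 200 bp of the start. Members of the gene groups with a tfiis-1-higher summit there included TCH2 (AT5G37770), a calmodulin-like calcium sensor induced by touch, 14 bp from the start. PAPS1 (AT1G17980), a nuclear poly(A) polymerase, had summits 56 bp from its start and 158 bp from its end. DREB2A (AT5G05410), a transcription factor of heat and drought responses, had its summit 152 bp from the start.

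The tfiis-1-higher genes were long (median 2613 bp), and their end summits were present at all lengths. The Col-0-higher genes had a median length of 2169 bp. All genes were split by length into 4 classes of like size. Of the genes of at most 1323 bp, 2.80% were tfiis-1-higher. In the next classes (1324 to 2078 bp, 2079 to 3030 bp and 3031 bp or more) it was 10.1%, 14.4% and 16.4%. The pairs within 200 bp of the end made up 43.1%, 36.3%, 29.3% and 21.1% of the tfiis-1-higher pairs from the shortest to the longest class at 10 min. At 0 min they made up 11.5%, 4.01%, 4.95% and 2.89%. Of the 69 Col-0-higher genes, 18, 13, 13 and 25 were in these classes. Genes of at most 1000 bp were 2.28% of the tfiis-1-higher genes (68 genes) and 15.9% of the Col-0-higher genes (11 genes), against 16.0% of all protein-coding genes.

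Neighbouring genes lay close behind many end summits. Genes on either strand were counted as neighbours. The next gene's nearest edge lay a median of 190 bp past the 1070 genes with a summit within 200 bp of the end. This distance was 306 bp for the other 1919 tfiis-1-higher genes. The next gene overlapped the called gene in 23.6% of the first set (21.0 to 26.2) and in 17.3% of the second (15.6 to 19.1). Neither the distance nor the overlap was computed for all protein-coding genes. The part of these neighbours in the signal was not tested. Of the 3743 summits, 99 lay inside more than 1 listed gene, 96 of them in genes on opposite strands, and 35 lay within 200 bp of the end of every gene that held them. Whether reads there belong to one gene or its neighbour cannot be told from the lists.

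Most called genes had a single site. Of the 2989 genes, 2361 held 1 tfiis-1-higher summit, 463 held 2, 118 held 3, 36 held 4, 9 held 5 and 2 held 6. The 628 genes with more than 1 were 21.0% of the list, against 12.4% at 0 min, 46.5% at 30 min and 53.9% at 3 h. Single summits had a median position of 0.853, and 814 of the 2361 (34.5%) lay within 200 bp of the end. In genes with several, the most upstream summit had a median position of 0.416 and the most downstream one of 0.914, and 256 of the 628 genes (40.8%) had a summit within 200 bp of the end. Neighbouring summits of a gene were a median of 927 bp apart, with quartiles of 646 and 1360 bp.

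Genes with many summits showed sites in steps along their length. TPC1 (AT4G03560), the slow vacuolar cation channel, had 6 at positions 0.29, 0.47, 0.53, 0.65, 0.78 and 0.97 of its 6052 bp. At 0 min it had 1 tfiis-1-higher summit, at 0.26. CEV1 (AT5G05170), which encodes the cellulose synthase subunit CESA3, had 5, at 0.14, 0.31, 0.48, 0.67 and 0.99. The first 4 of these were again called at 30 min, at 0.15, 0.30, 0.47 and 0.67, while the summit 36 bp from the end was not. HA1 (AT2G18960), a plasma membrane proton pump, had 5, from 0.18 to 0.97, and at 30 min a Col-0-higher summit at 0.98. NLP7 (AT4G24020), a transcription factor of the nitrate response, had 5, the last at 0.95, and then Col-0-higher summits at 0.89 at both 30 min and 3 h. RCD1 (AT1G32230), a regulator of oxidative stress responses, had 5 between 0.16 and 0.83, and TOC159 (AT4G02510), a receptor of the chloroplast protein import machinery, had 5 between 0.09 and 0.70.

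The lists of 10 min and 0 min could be compared within single genes. They shared 711 genes, which were 23.8% of the tfiis-1-higher genes of 10 min and 52.9% of those of 0 min (the 0 min list covers 4.9% of all protein-coding genes). In 617 of them the gene's median summit position was further downstream at 10 min, and in 94 further upstream. The median difference of 10 min minus 0 min was 0.309 of the gene (0.271 to 0.333), from median positions of 0.747 at 10 min and 0.394 at 0 min. Where a gene had exactly 1 summit at each time (426 genes), the median difference was 0.359. XRN4 (AT1G54490), a cytoplasmic 5'-3' exoribonuclease, had its summit at 0.96 at 10 min and at 0.11 at 0 min. CYCT1;4 (AT4G19600), a cyclin T partner of kinases of the RNAPII C-terminal domain, had it at 0.96 at 10 min and at 0.08 at 0 min. PGM3 (AT1G23190), a cytosolic phosphoglucomutase, had it 1 bp from the annotated end at 10 min and at 0.15 at 0 min. The largest difference in the other direction was in Cpn60beta2 (AT3G13470), a subunit of the chloroplast chaperonin, with 0.04 at 10 min and 0.93 at 0 min.

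**Figure D2:**
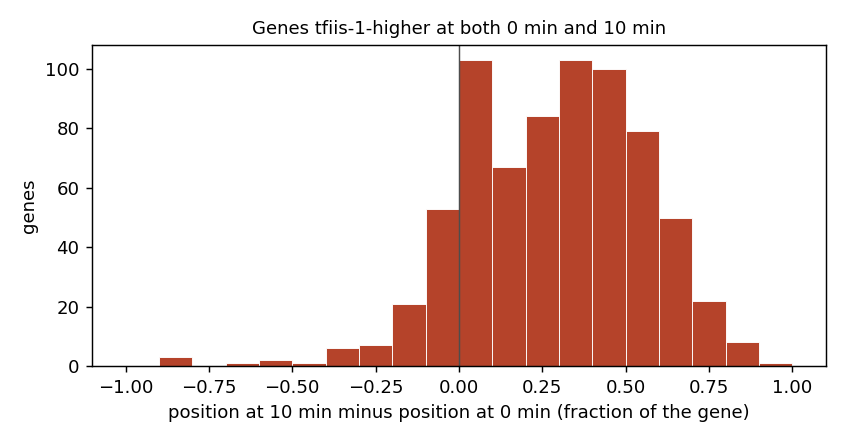
The x axis is a gene's median tfiis-1-higher summit position at 10 min minus that at 0 min (fraction of the gene, bins of 0.1), and the y axis is the number of genes, over the 711 genes in both lists. The 617 genes right of the line at 0 had sites further downstream at 10 min, and the median difference was 0.309.

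At the later times positions lay further upstream again. Of the 2989 genes, 1834 (61.4%; 40.3% of the 30 min list) were tfiis-1-higher again at 30 min, with a median difference of 30 min minus 10 min of -0.172. In 1388 of those the position was further upstream at 30 min and in 443 further downstream. At 3 h, 1832 (61.3%; 28.2% of the 3 h list) were again tfiis-1-higher, with a median difference of -0.311, 1515 of them upstream and 316 downstream. Of all protein-coding genes, 16.6% were tfiis-1-higher at 30 min and 23.7% at 3 h. The Col-0-higher lists held 356 of the 2989 genes at 30 min (11.9%; 41.1% of that list) and 1242 at 3 h (41.6%; 42.0% of that list), where 3.16% and 10.8% of all protein-coding genes were Col-0-higher. These shares are given as a description. In 226 of the 356 and in 951 of the 1242 genes, a Col-0-higher summit lay within 500 bp of a tfiis-1-higher summit of 10 min. NRPB1 (AT4G35800), the largest subunit of RNAPII, had a tfiis-1-higher summit 57 bp from its end at 10 min and a Col-0-higher summit at 0.99 at both 30 min and 3 h.

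A part of the list was tfiis-1-higher at 10 min and at no other time. Col-0-higher calls were not counted here: PIP1C (AT1G01620), an aquaporin of this part, was Col-0-higher at 3 h. These 720 tfiis-1-higher genes had a median length of 2126 bp, a median summit position of 0.794 and 32.2% of their pairs within 200 bp of the end. The 538 genes that were tfiis-1-higher at all 4 times were longer (median 3287 bp), with a median position of 0.709 and 22.9% of pairs within 200 bp of the end.

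Genes of the heat response were called at 10 min in both directions, and their tfiis-1-higher sites lay early in the gene. Over 7 groups (HSP90, HSP70, HSP100 and HSP60, small heat shock proteins, heat shock transcription factors, co-chaperones and heat acclimation genes), 35 of 94 genes (37.2%) were tfiis-1-higher, 11 were Col-0-higher and 55 were in neither list. Of all protein-coding genes, 10.9% were tfiis-1-higher and 0.251% Col-0-higher; the counts are a description, as the groups were chosen with earlier results known. At 0 min, 2 of the 94 genes were tfiis-1-higher (4.9% of all genes were) and 0 were Col-0-higher. Later 6 of the 94 were tfiis-1-higher and 10 Col-0-higher at 30 min, when 16.6% and 3.16% of all genes were. At 3 h the numbers were 46 and 34, with 23.7% and 10.8% of all genes. The 42 tfiis-1-higher pairs had a median position of 0.256 (0.218 to 0.406), and 29 of them (69.0%) lay before the middle of the gene, where 25.7% of all tfiis-1-higher pairs did. The median heat response summit lay 652.5 bp from the gene start, and 3 of the 42 lay within 200 bp of the end. The 12 Col-0-higher pairs of these groups had a median of 0.762.

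HSP90 chaperones, which fold signalling proteins and hold heat shock factors inactive, were tfiis-1-higher in 5 of 7 genes. Among all protein-coding genes, 10.9% were tfiis-1-higher and 0.251% Col-0-higher. HSP81-3 (AT5G56010) had its summit 177 bp from the start, HSP90.1 (AT5G52640), the heat-induced cytosolic form, 281 bp from it, and the chloroplast HSP90 CR88 (AT2G04030) 565 bp from it. Hsp89.1 (AT3G07770), the mitochondrial HSP90, had summits at 0.15 and 0.24. SHD (AT4G24190), which works in the endoplasmic reticulum, stood apart with a summit 120 bp from the end. The Col-0-higher HSP90 genes were HSP90.1 (0.67) and HSP81-2 (AT5G56030; 0.74), whose score was 8.83 on the authors' scale. HSP90 and HSP70 families hold near-identical copies, and the handling of reads that fit several copies is unknown, so calls on single copies are uncertain.

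HSP70 chaperones, which bind unfolded stretches of proteins, were tfiis-1-higher in 5 of 18 genes and Col-0-higher in 5. The tfiis-1-higher share of 27.8% has an interval of 9.69 to 53.5%, which includes the 10.9% of all protein-coding genes. Of all those genes, 0.251% were Col-0-higher. HSP70T-2 (AT2G32120) had its tfiis-1-higher summit 523 bp from the start, AT3G09440 had it 522 bp from the start, and the mitochondrial MTHSC70-2 (AT5G09590) 627 bp from it. The chloroplast cpHsc70-1 (AT4G24280) had it at 0.37. BIP1 (AT5G28540), the HSP70 of the endoplasmic reticulum, had summits at 0.45 and 0.88. The Col-0-higher sites were further down: 0.78 in the constitutive HSC70-1 (AT5G02500), 0.80 in MTHSC70-2, 0.94 in HSP70T-2, 0.95 in Hsp70b (AT1G16030), and 0.50 and 0.87 in AT3G09440, of which the summit at 0.87 also lies in the overlapping gene AT3G09430.

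The HSP100 and HSP60 groups and the co-chaperones gave a like picture. Of 12 HSP100 and HSP60 genes, 5 were tfiis-1-higher and 1 was Col-0-higher. The shares among all protein-coding genes were 10.9% and 0.251%. The mitochondrial chaperones CLPB4 (AT2G25140) and HSP60 (AT3G23990) had summits at 0.08 and 0.16. CLPC1 (AT5G50920), a chloroplast Clp ATPase, was an exception with 4 summits between 0.24 and 0.98. Of 14 co-chaperones, 9 were tfiis-1-higher and 2 Col-0-higher. The DnaJ protein J2 (AT5G22060) had summits 520 bp from the start and 253 bp from the end. Fes1A (AT3G09350), which protects HSP70 clients, had one 589 bp from the start, and the immunophilin ROF1 (AT3G25230), which acts with HSP90, one 772 bp from the start. SGT1B (AT4G11260), an HSP90 partner of immune receptors, had its summit 98 bp from the end. BAG6 (AT2G46240), a heat-induced co-chaperone, was Col-0-higher at 0.36.

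Among the 21 heat shock transcription factors, 3 were tfiis-1-higher: HSFA2 (AT2G26150), which keeps the heat response going, at 0.25, HSFA7A (AT3G51910) at 0.22, and the repressor HSFB2A (AT5G62020) at 0.61. Their share of 14.3% (3.05 to 36.3) was near the 10.9% of all protein-coding genes, of which 0.251% were Col-0-higher. HSFA2 was also the only Col-0-higher member of that group, at 0.58. Small heat shock proteins, which keep unfolding proteins soluble, were tfiis-1-higher in 6 of 17 genes and Col-0-higher in 0. Their summits lay 384 bp (HSP23.6-MITO, AT4G25200) to 688 bp (AT2G19310) from the start. Since these genes are short, that is a median position of 0.524. Of 5 heat acclimation genes, DREB2A and HSA32 (AT4G21320; 561 bp from the start) were tfiis-1-higher.

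**Figure D3:**
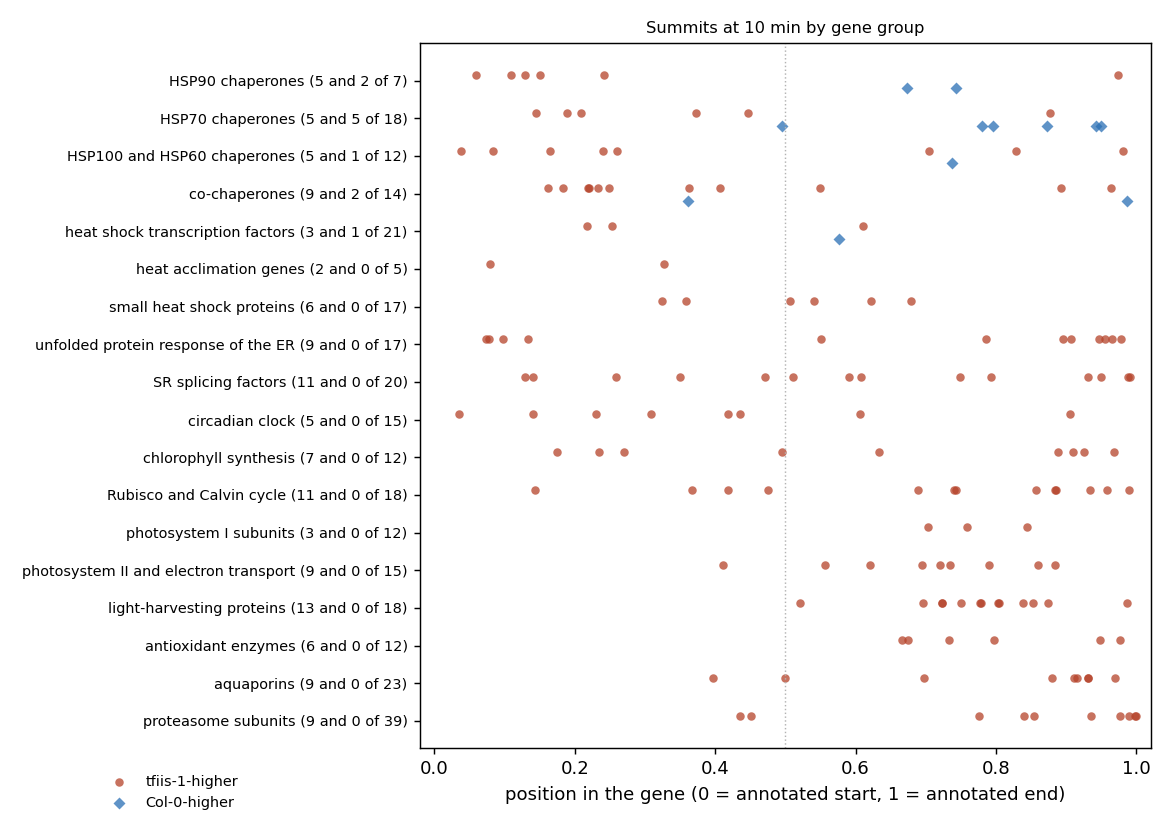
Each symbol is a summit of the 10 min lists placed by its position in the gene (x axis, 0 at the annotated start and 1 at the annotated end) for 18 gene groups (rows), red circles tfiis-1-higher and blue diamonds Col-0-higher; row labels give the called genes of each direction and the number of members. Most red circles of the large chaperone and co-chaperone rows lie left of the dotted middle line, most of those of the photosynthesis rows right of it, and among the rows drawn the blue diamonds are in the large chaperone, co-chaperone and heat shock factor rows; the group of 3' end processing, which is not drawn, has 1 Col-0-higher gene.

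The genes with summits in both 10 min lists showed an order along the gene. There were 14, which is 0.468% of the tfiis-1-higher genes, beside 0.251% Col-0-higher among all protein-coding genes. The same 14 are 20.3% of the Col-0-higher genes, beside 10.9% tfiis-1-higher among all. Of the 14, 7 were in the heat response groups. All 7 had the tfiis-1-higher site upstream of the Col-0-higher one. HSP90.1 (TAIR10 chromosome 5, 21352557 to 21355147) had its tfiis-1-higher summit at 0.11 and its Col-0-higher summit at 0.67. In HSFA2 (chromosome 2, 11135624 to 11137792) they lay at 0.25 and 0.58. In Cpn60beta2 (chromosome 3, 4389215 to 4393015) they lay at 0.04 and 0.74. In Hop3 (AT4G12400; chromosome 4, 7338018 to 7341363), which links HSP70 to HSP90, they lay at 0.16 and 0.99, but the Col-0-higher summit also lies in the overlapping gene PME1 (AT4G12390), and the calls cannot be told apart there.

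Of the 7 genes outside these groups, 4 had the same order. These were AT1G13350 (0.11 tfiis-1-higher and 0.47 Col-0-higher), AT1G23880 (0.01 and 0.19), BT2 (AT3G48360; 0.57 and 0.98), a BTB and TAZ domain protein of nutrient and hormone responses, and AT4G09150, whose tfiis-1-higher summit at 0.14 lay before Col-0-higher ones at 0.63 and 0.77. The reverse order was seen in emb1688 (AT1G67440), CSTF64 (AT1G71800), a subunit of the mRNA cleavage machinery, and GSTF12 (AT5G17220), a glutathione transferase of anthocyanin transport. The nearest summits of opposite direction were 565 to 2755 bp apart in the 14 genes, so 0 of them had both within 500 bp.

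**Figure D4:**
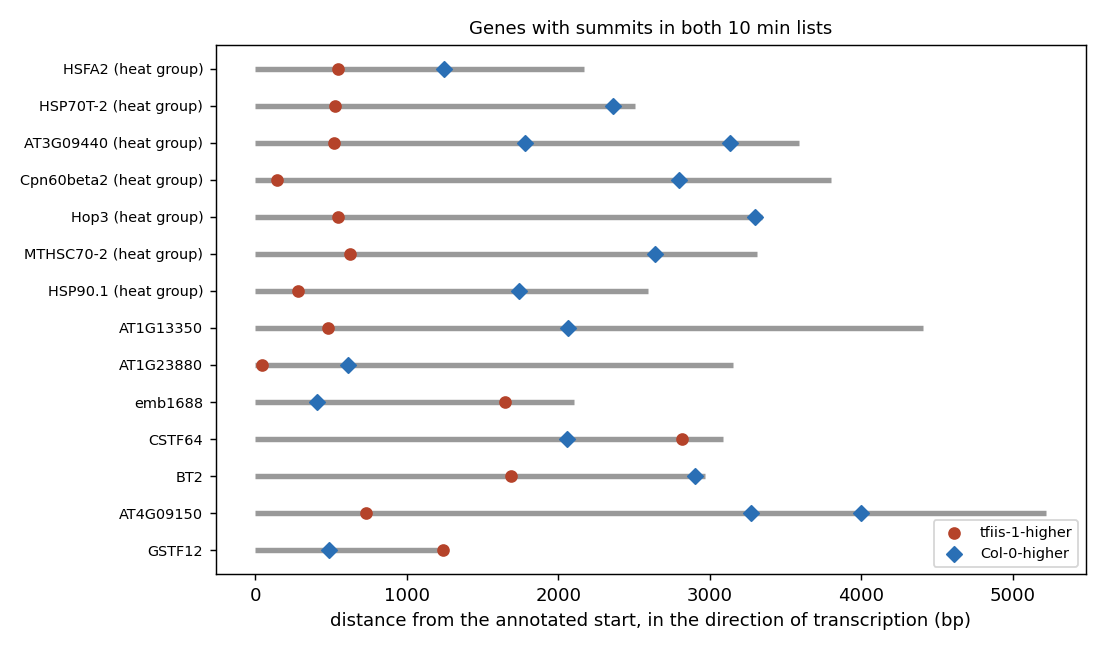
Each grey line is one of the 14 genes with summits in both 10 min lists, drawn to scale from its annotated start (x axis, bp in the direction of transcription), with red circles for tfiis-1-higher and blue diamonds for Col-0-higher summits. In 11 genes, the 7 of the heat groups among them, the circle lies left of every diamond, and in 3 it lies to the right.

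A large share of photosynthesis genes had a tfiis-1-higher summit after 10 min, at a median position near that of the whole list. Over 4 groups, 36 of 63 genes (57.1%) were tfiis-1-higher and 0 were Col-0-higher, beside 10.9% and 0.251% of all protein-coding genes. So few genes were Col-0-higher at this time that 0 among 63 does not set these groups apart. The tfiis-1-higher genes of these groups numbered 4 at 0 min, 12 at 30 min and 8 at 3 h, when 4.9%, 16.6% and 23.7% of all genes were called. The Col-0-higher ones numbered 0 at 0 min, 10 at 30 min and 27 at 3 h, with 0.113%, 3.16% and 10.8% of all genes. The 38 tfiis-1-higher pairs of 10 min had a median position of 0.754 (0.720 to 0.839), near the 0.782 of the whole list, with 5 of them (13.2%) before the middle of the gene. The median summit lay 385.5 bp from the end, and 7 pairs lay within 200 bp of it. These genes are short, with a median of 1584 bp against 2078 bp for all protein-coding genes.

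Light-harvesting proteins, which carry the antenna chlorophyll, had the highest share of the photosynthesis groups, 13 of 18, with 1 summit each. Among all protein-coding genes the tfiis-1-higher share was 10.9%. The 3 neighbouring genes CAB1, CAB2 and CAB3 (AT1G29930, AT1G29920 and AT1G29910) had summits at 0.80, 0.70 and 0.84, and these near-identical copies may share reads. LHCA1 (AT3G54890), of the photosystem I antenna, and LHCB5 (AT4G10340), of the photosystem II antenna, had them at 0.78 and 0.75. NPQ4 (AT1G44575), the PsbS protein that dissipates excess light, had its summit 44 bp from the end. Of 15 photosystem II and electron transport genes, 9 were called, among them the plastocyanin gene DRT112 (AT1G20340; 0.73) and PSBO1 (AT5G66570; 0.62), which stabilizes the water-splitting site. Photosystem I subunits were called in 3 of 12 genes, PSAF, PSAG and PSAL, at 0.76, 0.84 and 0.70.

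Enzymes of carbon fixation and pigment synthesis were tfiis-1-higher too. Rubisco and Calvin cycle genes were called in 11 of 18 cases, with RCA (AT2G39730), the Rubisco activase, at 0.74 and GAPB (AT1G42970), the plastid glyceraldehyde-3-phosphate dehydrogenase subunit, at 0.14, 0.48 and 0.99. Chlorophyll synthesis genes were called in 7 of 12 cases, beside 10.9% of all protein-coding genes. HEMA1 (AT1G58290), the glutamyl-tRNA reductase at the head of that pathway, had its summit 88 bp from the end, while GUN5 (AT5G13630), the large magnesium chelatase subunit, had summits at 0.18 and 0.27.

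The unfolded protein response, the folding stress pathway of the endoplasmic reticulum, was tfiis-1-higher in 9 of 17 genes and Col-0-higher in 0. Of all protein-coding genes, 10.9% were tfiis-1-higher and 0.251% Col-0-higher. The median of the 12 pairs of this response was 0.841, unlike the 0.256 of the heat groups, and the members split between both gene ends. Near the end lay the summits of CNX1 (AT5G61790), a calnexin (98 bp from it), BZIP60 (AT1G42990), a transcription factor of the response (78 bp), and ATERDJ3B (AT3G62600), a DnaJ protein (65 bp). Near the start lay those of TIN1 (AT5G64510; 155 bp from it), ATERDJ3A (AT3G08970; 433 bp) and one of the 3 summits of BZIP28 (AT3G10800; 239 bp), the membrane-bound sensor of the response. The difference between these groups was not tested.

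Groups of RNA processing and of the transcription machinery differed in how many genes were called. Of all protein-coding genes, 10.9% were tfiis-1-higher and 0.251% Col-0-higher at 10 min. SR splicing factors, which choose splice sites, were tfiis-1-higher in 11 of 20 genes, at positions from 0.13 (SR30, AT1G09140) to 0.99 (SCL30, AT3G55460). SR45a (AT1G07350), a stress-induced member, had its summit at 0.26. The core spliceosome had 4 of 11 genes called, and the group of 3' end processing and termination had 6 of 17, with 1 Col-0-higher member, CSTF64. In that group PAPS2 (AT2G25850), a poly(A) polymerase, had its summit 61 bp from the end; XRN4, counted there, acts in cytoplasmic RNA decay. Among 17 transcription elongation factors only IWS1 (AT1G32130), which binds elongating RNAPII, was called, at 0.92. Among 14 RNAPII subunits NRPB1 and NRPB10 (AT1G11475) were, 57 and 38 bp from their ends. These shares, 5.88% of the elongation factors and 14.3% of the RNAPII subunits, lay below and near that of all genes.

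4 further groups were tfiis-1-higher in between 5 of 15 and 8 of 16 genes. Of all protein-coding genes, 10.9% were tfiis-1-higher and 0.251% Col-0-higher. The circadian clock group had 5 of 15 genes tfiis-1-higher, with a median position of 0.363. PRR9 (AT2G46790), a morning repressor of the clock, had summits at 0.31, 0.61 and 0.90, and GI (AT1G22770) had one at 0.44. The rapid stress and wound response group had 7 of 19, among them JAZ1 (AT1G19180), a jasmonate repressor, with summits at 0.41 and 0.97, and CBF2 (AT4G25470), a cold response factor, at 0.68. Antioxidant enzymes were called in 6 of 12 genes and all past the middle of the gene, from CAT3 (AT1G20620), a catalase, at 0.67 to MSD1 (AT3G10920), the mitochondrial superoxide dismutase, at 0.98. Genes often used as expression standards were called as well: 8 of 16 actin, ubiquitin, EF1-alpha and GAPC genes, with ACT8 (AT1G49240) 29 bp and ACT2 (AT3G18780) 201 bp from the end and UBQ10 (AT4G05320) at 0.45. None of these 4 groups had a Col-0-higher gene.

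Large housekeeping families had between 1 of 22 and 9 of 23 genes called. This is set beside 10.9% tfiis-1-higher and 0.251% Col-0-higher genes among all protein-coding genes. Aquaporins, the water channels, had 9 of 23 genes tfiis-1-higher with a median position of 0.912, such as RD28 (AT2G37180), 47 bp from the end. Genes named as ribosomal proteins had 19 of 67, translation initiation and elongation factors 8 of 31, tubulins 4 of 15 and proteasome subunits 9 of 39. PAE1 (AT1G53850), a proteasome core subunit, had its summit 2 bp from the end of the gene. Histones, which are short genes, had 1 of 22 (4.55%), HTA7 (AT5G27670), which is below the share of all genes. None of these families had a Col-0-higher gene.

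The Col-0-higher list was short, and heat response genes were 11 of its 69 genes. The heat response groups hold 94 genes, and 0.251% of the 27444 nuclear protein-coding genes were Col-0-higher. The count is a description, as the groups were chosen with earlier results known. Its scores, the authors' own value per summit on a scale that is not stated, ran from 2.17 to 17.9 with a median of 5.22, and were used only to rank its summits. The highest belonged to AT5G10710 (chromosome 5, 3378956 to 3382958), whose summit lay at 0.29. Next came MYB66 (AT5G14750; chromosome 5, 4763372 to 4764834; score 13.7; position 0.77), the WEREWOLF regulator of root epidermis fate, and AT4G09150 (chromosome 4, 5828505 to 5833725; score 10.2; position 0.63). CES101 (AT3G16030), a receptor-like kinase, had a score of 8.83 at position 0.91. ACD2 (AT4G37000), an enzyme of chlorophyll breakdown, had summits at 0.57 and 0.23 with scores of 8.45 and 8.18.

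The heat response genes of this list were placed later in the gene than the others. Of their 12 pairs, 10 lay past the middle, and the median score was 4.54. Of the 62 pairs of the other 58 genes, 25 lay past the middle, with a median position of 0.369 and a median score of 5.64. Of the 69 genes, 43 were Col-0-higher at 10 min alone, and 31 were in no other list of either direction. Later Col-0-higher lists held 14 of the 69 genes at 30 min and 22 at 3 h, 7 of these 22 from the heat response groups. Of all protein-coding genes, 3.16% were Col-0-higher at 30 min and 10.8% at 3 h. BT2 was the only one of the 69 genes that was also Col-0-higher at 0 min, when 0.113% of all genes were.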

How the data were processed

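Per the labels' protocols, seedlings were crosslinked with formaldehyde, chromatin was sheared, S2P RNAPII was immunoprecipitated with antibody ab5095, and libraries were made with 9 PCR cycles. The submitters' processing notes name Bowtie2, deepTools, FastQC, MACS3 and TAIR10, without versions. The calling threshold, scaling, duplicate handling and pooling of replicates are not stated in the sources used here; each acts on every call. The authors deposited 2 lists per time: summit, gene and strand per line, and in the Col-0-higher lists of 10 and 30 min a score, peak name and gene coordinates. The deposited score has no stated scale. The deposited summit positions are base coordinates, with no value per library.

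From these, 4275 lines at 10 min gave 3815 summits. Gene intervals and symbols came from the RefSeq table of TAIR10.1; 1010 intervals compared were equal, and every summit lay in its gene. Median intervals are order-statistic 95% intervals, and shares have exact (Clopper-Pearson) 95% intervals. Fisher's exact test (two-sided) was used on 7 differences of shares, with Benjamini-Hochberg adjustment at 0.05. These methods were tried on simulated data with independent draws, unlike summits that share genes. No test over libraries was possible. Members, tests and 31 gene groups (22 by identifier, 9 by annotated name) were chosen with earlier results of these data known. Named genes were TFIIS, the 10 with most summits, the 15 highest scores, genes in both lists, up to 4 members of each group per direction, and the 5 largest position differences each way; other group members named, LHCA1 among them, were chosen after their values were seen. Alternatives changed merging (300 bp), window (100 or 500 bp, or 10% of the gene), gene length (1000 bp), summits in overlapping genes, positions per gene and score. No sequences were given for these genes, so none is shown. Python 3.11.15, numpy, scipy, pandas and matplotlib were used.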

Additional observations from a re-analysis of the deposited data

How the results depend on the processing

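No paired analysis was possible because the lists hold no value per library, and for the same reason no replicate could be left out. Of the values that answer a comparison, 75 recomputed under an alternative kept their direction and their side of the threshold or stayed within the tolerance, 2 reversed and 12 moved; of the single gene groups 61 stayed and 1 moved, co-chaperones, with 1 Col-0-higher gene in place of 2 once summits in overlapping genes were left out. The reversals were the share at the gene start against 3 h: 0.202 points with 1 position per gene (adjusted exact p = 0.623) and 0.520 points with a window of 100 bp (adjusted exact p = 0.00206). Without summits in overlapping genes the tfiis-1-higher median position was 0.767. In genes with exactly 1 summit at both times the differences in position were 0.359 (10 min minus 0 min), -0.103 (30 min minus 10 min) and -0.347 (3 h minus 10 min). Asking for summits within 500 bp in the shared gene left 347 genes with tfiis-1-higher at 0 min and 1039 at 3 h, and 9, 0 and 226 with Col-0-higher at 0, 10 and 30 min. The higher-scoring 50% of the Col-0-higher list holds 36 summits. Asking for at least 2 tfiis-1-higher summits, or for that higher-scoring part, left 19 of 137 tfiis-1-higher and 4 of 12 Col-0-higher genes of the 22 groups by identifier; fewer sites enter by construction. The search for heat shock elements in promoters was not run, because no promoter sequence was given. Depth is unknown, so what it limits cannot be stated.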

Other observations

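3 gene families were added after their values were seen, so their counts are descriptions. Of all protein-coding genes, 10.9% were tfiis-1-higher and 0.251% Col-0-higher at 10 min. Vacuolar H+-ATPase subunits, which acidify the vacuole and the secretory pathway, had 11 of 17 genes tfiis-1-higher at 10 min, with 19 pairs and a median position of 0.873. VAB3 (AT1G20260) had summits at 0.33, 0.52 and 0.93, and at 0 min at 0.23, 0.35 and 0.52. DET3 (AT1G12840), the C subunit, had 1, 177 bp from its end. Kinases that bind calcineurin B-like calcium sensors (CIPK) were tfiis-1-higher in 12 of 26 genes with a median position of 0.722, among them CIPK23 (AT1G30270), a regulator of potassium and nitrate uptake, at 0.89. Cellulose synthase (CESA) genes were tfiis-1-higher in 5 of 10 with 18 pairs: CESA1, CESA2, CEV1, CESA5 and CESA6, the isoforms known from primary cell walls. Their median position was 0.430, and 4 of the 5 had a summit at 0.96 or beyond, the exception being CESA2 (AT4G39350), whose last of 4 summits lay at 0.50. None of these families had a Col-0-higher gene.

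Peak names in the Col-0-higher list of 10 min number up to 478, while the list holds 72 summits. Of the numbers not listed, 220 fall between neighbouring listed summits at 2147243 and 7783731 of chromosome 2, 52 between 1081230 and 5831776 of chromosome 4, 33 between 5658904 and 14971288 of chromosome 5 and 28 between 5807471 and 17907835 of chromosome 3 (TAIR10). The peaks behind those numbers are not analysed here.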
